A study of Mus musculus with 3 samples.

Results

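A set of 8 transcription factors of the ocular surface epithelium, *Trp63*, *Klf5*, *Sox9*, *Barx2*, *Elf3*, *Ehf*, *Grhl1* and *Grhl3*, were followed in single cells of the mouse limbus and iridocorneal angle. They were taken by symbol, 8 of the 31053 genes in the count matrices, and all 8 were found. Cells came from 2 control libraries (*Angpt1* flox/flox) and 1 *Angpt1*ΔNC library (*Angpt1* flox/flox;Wnt1Cre+), in which Wnt1Cre deletes *Angpt1* in the neural crest lineage and its derivatives. All mice were 6 weeks old and albino after crossing to ICR, and each library pooled the 4 to 6 eyes of 2 to 3 mice, so replicates are libraries rather than cells. Only the *Angpt1*ΔNC pool carried Cre, and 1 library stands for that genotype. The authors kept 26008 cells with 35 cluster names, and the 3468 cells of clusters 2, 3, 4 and 5 form the surface epithelium. Cluster 2 carries the name limbal stem cells, and the epithelium of cluster 3 is named conjunctival, that of cluster 4 limbal and that of cluster 5 corneal. By library (control 1, control 2 and *Angpt1*ΔNC, the order kept throughout), cluster 2 held 56, 41 and 69 cells, cluster 3 held 98, 100 and 192, cluster 4 held 414, 507 and 641, and cluster 5 held 575, 505 and 270.

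The surface of the eye is covered by a stratified epithelium that is renewed from basal cells at the limbus. p63, the product of *Trp63*, maintains the basal progenitors of such epithelia. KLF5 is a zinc finger factor of proliferating epithelial cells, SOX9 and the homeobox factor BARX2 act in progenitors and in gland and epithelial development, the ETS factors ELF3 and EHF and the Grainyhead-like factors GRHL1 and GRHL3 act in differentiating and barrier-forming cells.

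The kept cells held 66484181 to 80346829 UMIs per library, and the epithelial cells were deep, with a median of 12359 to 26906.5 UMIs over the clusters and libraries. *Angpt1* was detected in 17.2%, 17.3% and 0.340% of all kept cells, in the direction of the genotype labels. In counts scaled to the library total (CPM), *Xist* made up 0.0390, 0.0249 and 652 CPM. The methods describe pools of mixed sex, which the near absence of *Xist* from both control libraries goes against, and the sexes of the pools and the genotype cannot be told apart. From 13 to 25 barcodes of kept cells were shared between pairs of libraries. Levels below are means over cells of UMIs per 10,000 UMIs of the cell, and shares are percentages of cells with at least 1 UMI, with exact Clopper-Pearson 95% intervals that cover counting error only. The clusters were made from the expression of these same cells, so differences between them are described without a test. Cluster shares also moved between the libraries, with cluster 3 at 1.08%, 0.984% and 2.84% of cells, cluster 4 at 4.56%, 4.99% and 9.47%, and cluster 5 at 6.34%, 4.97% and 3.99%.

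The names were first compared with markers. The summed level of 4 corneal markers (*Krt12*, *Aldh3a1*, *Slurp1*, *Tkt*) was 330.0, 273 and 230.2 in cluster 5 against 26.9, 21.5 and 16.3 in cluster 4, and that of 5 conjunctival markers (*Krt13*, *Krt4*, *Krt19*, *Krt8*, *Muc4*) was 29.4, 26.7 and 27.6 in cluster 3 against 2.098, 2.34 and 2.48 in cluster 4. Cluster 2 stood out by the cell cycle, with 5 cycling genes at a sum of 8.28, 9.73 and 6.34 against at most 0.831 elsewhere in the surface epithelium. It also held 3, 6 and 1 cells with fewer than 10 UMIs of *Krt5*, *Krt14* and *Krt15* per 10,000. None of these cells had a *Trp63*, *Barx2*, *Elf3*, *Ehf* or *Grhl3* UMI, and their stromal markers summed to 99.9, 28.0 and 163. Their melanocyte markers summed to 0.915, 45.4 and 0, the highest of these sums in control 2, and their endothelial markers to 6.21, 7.94 and 0. Cluster 2 is therefore called by its number here, and its keratin-bearing cells (53, 35 and 68) are given beside it. In those cells the conjunctival sum was 4.61, 6.49 and 9.43, beside a cycling sum of 7.72, 8.23 and 6.26.

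The upstream sequences of *Elf3*, *Grhl3* and *Grhl1* are shown because these genes were highest together in cluster 3 and because *Grhl3* and *Grhl1* passed the test between genotypes in cluster 4. RefSeq promoters (build GRCm38.p6) were matched for 3 of the 8 genes, with 4 entries, and not for *Trp63*, *Klf5*, *Sox9*, *Barx2* or *Ehf*. Each run below is 150 bases, 5′ to 3′ on the strand of the gene, and ends before the first annotated exon. Capitals mark CACCC (a KLF-type motif), GGGCGG (a GC box), GGAAG (an ETS-type motif) or AACNGGTT (a Grainyhead-type motif) on either strand. The *Elf3* stretch is chr1:135258569-135258718 on the minus strand, *Grhl3* is chr4:135573633-135573782 on the minus strand, and *Grhl1* has 2 starts on the plus strand, at chr12:24572133-24572282 and chr12:24580569-24580718.
Elf3: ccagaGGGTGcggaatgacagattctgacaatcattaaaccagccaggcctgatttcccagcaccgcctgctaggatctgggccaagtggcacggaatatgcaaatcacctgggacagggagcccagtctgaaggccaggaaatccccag
Grhl3: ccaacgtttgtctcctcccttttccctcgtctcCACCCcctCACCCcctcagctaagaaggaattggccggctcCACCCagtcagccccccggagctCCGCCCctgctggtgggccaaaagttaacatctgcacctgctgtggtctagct
Grhl1, upstream start: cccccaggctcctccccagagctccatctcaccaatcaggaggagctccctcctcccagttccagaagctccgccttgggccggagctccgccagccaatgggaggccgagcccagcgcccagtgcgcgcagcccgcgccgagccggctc
Grhl1, downstream start: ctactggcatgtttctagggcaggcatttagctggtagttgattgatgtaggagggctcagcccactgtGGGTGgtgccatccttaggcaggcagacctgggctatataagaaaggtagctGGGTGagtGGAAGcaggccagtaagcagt
In the 250 bases before the start site, *Grhl3* held 3 CACCC matches, 1 GC box and 1 GGAAG, and *Elf3* held 2 CACCC matches. The upstream *Grhl1* start held 2 GC boxes and no CACCC, while the downstream start held 2 CACCC and 2 GGAAG. The letters CACCC occur in 52.0% of all 32851 promoters over the same length, GGAAG in 64.1% and GGGCGG in 32.7%, so these matches are common letters. AACNGGTT (1.79% of promoters) and TATAAA (12.4%) were in none of the 4. CACCC and GGGCGG can overlap each other on opposite strands.

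Over the 35 clusters, 4 of the 8 genes had nearly all their UMIs in clusters 2 to 5, and the other 4 were shared with other tissue. The surface epithelium held 99.4%, 99.4% and 99.5% of all *Trp63* UMIs of each library, 99.0%, 98.3% and 98.9% of *Elf3*, 99.2%, 98.4% and 98.5% of *Ehf*, and 96.4%, 95.01% and 98.0% of *Grhl3*. For these 4 genes, clusters 2 to 5 took the 4 highest places by control level. *Trp63* stayed below 0.1 UMIs per 10,000 in all 31 other clusters and all 3 libraries, as did *Elf3* and *Grhl3*, and *Ehf* in 30 of 31, the other being the monocyte cluster 23 with 0.0845, 0.156 and 0.193. The share was lower for *Klf5* (78.7%, 74.8% and 90.6%), *Barx2* (67.7%, 82.3% and 76.8%) and *Grhl1* (73.3%, 60.5% and 81.9%), and lowest for *Sox9* (38.7%, 30.0% and 31.2%). Stroma (TM1 to TM11) held only 4.41%, 9.20% and 3.55% of the *Barx2* UMIs. As a measure of free RNA, blood endothelium (EC2 to EC4, 246, 263 and 182 cells) had 0, 1 and 0 cells with *Trp63*, none with *Barx2* or *Grhl3* (3 counts, taken as the limit of a count of 0, would be 1.22%, 1.14% and 1.65% of these cells), at most 1 cell per library with *Elf3* or *Ehf*, and at most 2 with *Grhl1*.

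**Figure D1:**
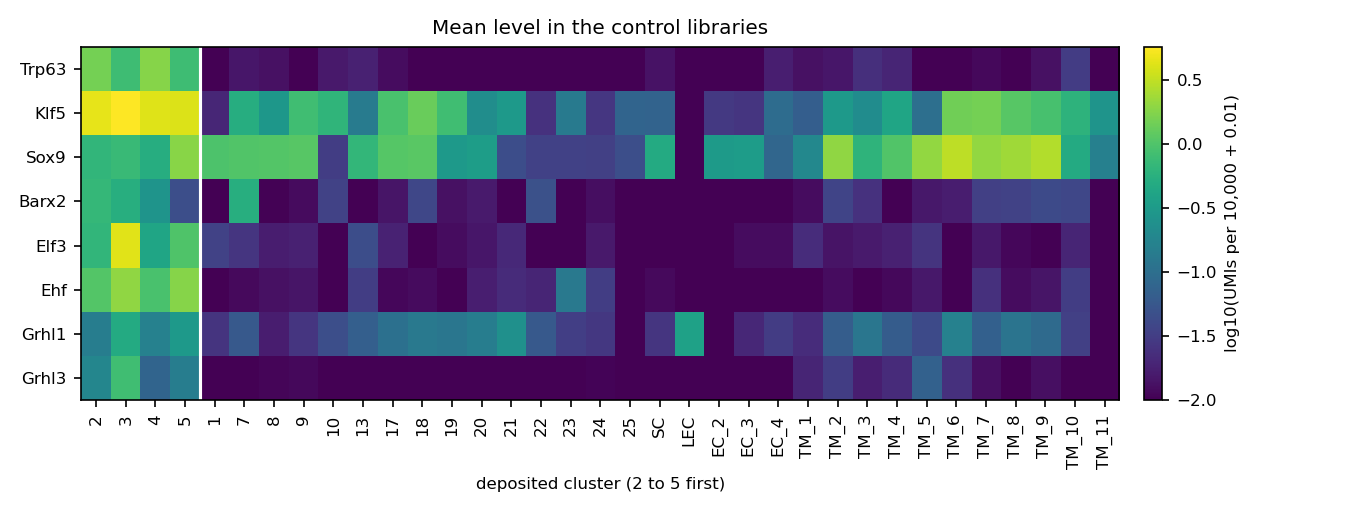
Mean level of the 8 genes in the 35 deposited clusters, averaged over the 2 control libraries, on a log10 scale of UMIs per 10,000 after adding 0.01. Clusters 2 to 5 stand left of the white line, where *Trp63*, *Elf3*, *Ehf* and *Grhl3* have their 4 highest levels, while *Klf5* and *Sox9* continue into the stroma, and the *Grhl1* value of LEC rests on 1 cell.

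*Trp63* was highest in cluster 4, at 1.68, 1.90 and 1.32 UMIs per 10,000, and in the cycling cluster 2, at 1.40, 1.63 and 1.44. It was lower in cluster 3 (0.686, 0.892 and 0.914) and cluster 5 (0.822, 0.734 and 0.647), and these last neighbours overlapped between libraries, as did the first 2. The share of cells with a UMI was 71.3% (95% CI 66.6 to 75.6), 70.4% (66.2 to 74.4) and 64.6% (60.7 to 68.3) in cluster 4 and 58.6%, 52.1% and 55.2% in the deeper cells of cluster 5. After thinning every cell to 5000 UMIs the shares were 45.3%, 51.7% and 39.5% in cluster 4 and 29.5%, 25.1% and 28.9% in cluster 5. Cluster 4 thus stayed above cluster 5 at equal depth, while cluster 2 then stood at or above cluster 4 (47.3%, 56.1% and 52.2%). The next cluster by control level was TM10, at 0.0311, 0.0102 and 0.0103.

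*Klf5* was the most abundant and the most even of the 8 genes. Its level was 5.56, 5.86 and 5.35 in cluster 3, 4.604, 4.34 and 4.77 in cluster 2, 4.48, 3.95 and 3.72 in cluster 4, and 4.27, 3.96 and 3.34 in cluster 5. Between 85.4% and 100% of cells had a UMI in each cluster and library. Cluster 3 lay above the other clusters in every library, and clusters 4 and 5 did not differ beyond the spread of the controls.

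*Sox9* divided the corneal from the limbal cells. It was at 1.91, 1.76 and 1.37 in cluster 5 and at 0.485, 0.550 and 0.624 in cluster 4, with no overlap. Cluster 2 had 0.711, 0.580 and 0.575, and cluster 3 had 0.614, 0.829 and 1.19. In cluster 3 the *Angpt1*ΔNC value lay above both controls, and there the stromal marker sum was also higher (0.407, 0.407 and 3.92). The part of such cells in the value was not tested. At 5000 UMIs per cell the share of cluster 3 cells with *Sox9* was 25.6%, 25.5% and 26.2%. By the mean of the controls the highest *Sox9* level was in the stromal cluster TM6 (3.57, 2.47 and 2.95). TM9 was higher in control 2 (3.01), and in *Angpt1*ΔNC the retinal pigment epithelium (cluster 1) was (1.06, 0.873 and 3.24). Cluster 1 held 133, 81 and 17 cells, so its *Angpt1*ΔNC value rests on few cells. In all, 15 of the 31 other clusters exceeded cluster 4 in control level. *Sox9* UMIs were found in 8.13%, 17.5% and 4.95% of blood endothelial cells but in 1.17%, 1.06% and 1.25% of cells of the monocyte cluster 24. The epithelial shares (33.8%, 34.7% and 39.2% in cluster 4 and 76.9%, 71.5% and 71.1% in cluster 5) were above either, but in deeper cells. At 2000 UMIs per cell they were 9.31%, 9.11% and 11.6% in cluster 4 and 25.3%, 23.3% and 20.8% in cluster 5. Blood endothelium then had 0%, 15.8% and 0% in EC2, 3.45%, 8.47% and 3.51% in EC3, and 0%, 2.13% and 0% in EC4. EC2 of control 2 thus exceeded cluster 4, while cluster 24 stayed at 0.604%, 0.306% and 0.253%.

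*Barx2* was, in contrast to *Sox9*, higher in cluster 4 than in cluster 5. Its level was 0.726, 0.642 and 0.431 in cluster 2, 0.599, 0.441 and 0.393 in cluster 3, 0.280, 0.232 and 0.155 in cluster 4, and 0.0390, 0.0321 and 0.0653 in cluster 5. Every library gave this same order, although the *Angpt1*ΔNC level of cluster 2 lay below the control 2 level of cluster 3. Outside the surface, *Barx2* was found in the ciliary epithelium (cluster 7) at 0.680, 0.365 and 0.575, a level close to that of clusters 2 and 3.

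*Elf3* was the gene whose level spanned most UMIs within the surface epithelium. It reached 5.20, 3.29 and 4.20 in cluster 3, where 80.6%, 88.0% and 88.0% of cells had a UMI, against 1.24, 0.731 and 0.917 in cluster 5, 0.678, 0.612 and 0.800 in cluster 2, and 0.431, 0.387 and 0.489 in cluster 4. Clusters 5 and 2 overlapped between libraries. *Ehf*, of the same ETS subfamily, overlapped between clusters 3 (1.89, 2.07 and 1.96) and 5 (1.87, 1.76 and 1.66), and lower in clusters 2 (0.959, 1.118 and 0.867) and 4 (0.996, 0.851 and 0.702). *Elf3* thus differed between conjunctival and corneal cells, and *Ehf* between both of these and limbal cells.

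Of the surface clusters, both Grainyhead-like genes were highest in cluster 3, and *Grhl3* was scarce in the others. *Grhl3* was at 0.922, 0.710 and 0.857 in cluster 3, at 0.173, 0.178 and 0.189 in cluster 2, at 0.181, 0.0966 and 0.153 in cluster 5, and at 0.0708, 0.0630 and 0.133 in cluster 4. Cluster 5 overlapped with clusters 2 and 4. *Grhl3* was detected in 58.2%, 61.0% and 68.8% of cluster 3 cells but in 5.80% (CI 3.75 to 8.50), 4.73% (3.06 to 6.96) and 14.8% (12.2 to 17.8) of cluster 4 cells. *Grhl1* was flatter, at 0.532, 0.422 and 0.515 in cluster 3, 0.325, 0.254 and 0.234 in cluster 5, 0.189, 0.118 and 0.219 in cluster 4, and 0.117, 0.157 and 0.203 in cluster 2, and clusters 4 and 2 overlapped. It was also present in vascular smooth muscle (cluster 21: 0.218, 0.245 and 0.161) and in TM6 (0.156, 0.151 and 0.199).

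**Figure D2:**
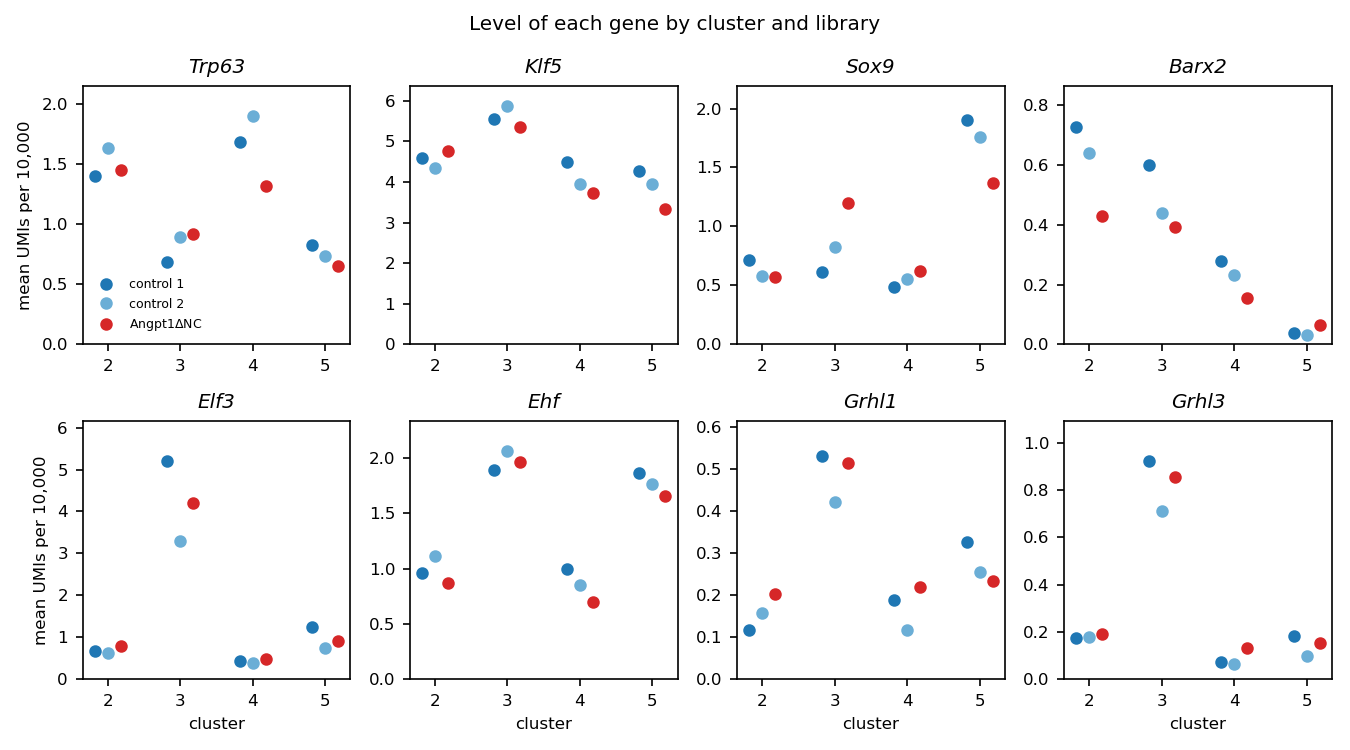
Level (mean UMIs per 10,000) of each gene in clusters 2, 3, 4 and 5, 1 point per library, controls in blue and *Angpt1*ΔNC in red. *Trp63* is highest in clusters 4 and 2, *Elf3*, *Grhl1* and *Grhl3* in cluster 3, *Sox9* in cluster 5 and *Barx2* in clusters 2 and 3.

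A few cells of cluster 3 stood apart. In control 1, 14 of 98 cells had fewer than 10 UMIs of *Krt5*, *Krt14* and *Krt15* per 10,000, against 0 of 100 in control 2 and 4 of 192 in *Angpt1*ΔNC. These 14 cells were deep (median 31234.5 UMIs) and had no *Trp63*, *Sox9* or *Barx2* UMI, whereas *Elf3* stood at 12.8 UMIs per 10,000 and was detected in every one, and *Ehf* stood at 1.65. *Klf5* was at 0.955 and *Grhl3* at 0.0144. Their conjunctival marker sum was 56.2, and the genes that led them over the other cluster 3 cells were *Psca*, *Lce3a*, *Asprv1*, *Lypd2* and *Cysrt1*, of which *Lce3a* belongs to the late cornified envelope family. The 4 *Angpt1*ΔNC cells also had no *Trp63* UMI and an *Elf3* level of 23.02, but their goblet cell markers summed to 20.4, against 0 in the 14 cells of control 1 and 1.0997 in the rest of cluster 3 of *Angpt1*ΔNC. Without these cells, which were singled out after their values were seen, *Elf3* in cluster 3 was 3.94, 3.29 and 3.80, so that the gap between the controls narrowed while the distance to cluster 4 remained.

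Ratios between clusters were taken within each library, after adding 0.01 to both levels. Of the 8 genes, 5 were at least 1.5-fold apart in the same direction in all 3 libraries between the limbal cluster 4 and the corneal cluster 5. *Trp63* was 2.03, 2.56 and 2.02 times higher in cluster 4, and *Barx2* was 5.91, 5.74 and 2.20 times higher. *Sox9* was 3.87, 3.16 and 2.17 times higher in cluster 5, *Elf3* 2.84, 1.86 and 1.86 times, and *Ehf* 1.86, 2.06 and 2.34 times. *Grhl1* and *Grhl3* were higher in cluster 5 of both controls, but by only 1.06 and 1.14 times in *Angpt1*ΔNC. Over the 6404 genes at 0.1 UMIs per 10,000 or more in either cluster, 13% were higher by this rule in cluster 4 and 11.6% in cluster 5.

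Between the conjunctival cluster 3 and the limbal cluster 4, another 5 of 8 passed, all higher in cluster 3, where 13% of 6632 genes did (10.6% were higher in cluster 4). *Elf3* was 11.8, 8.29 and 8.44 times higher and *Grhl3* 11.5, 9.86 and 6.08 times. *Grhl1* was 2.72, 3.39 and 2.29 times higher, *Ehf* 1.89, 2.41 and 2.77 times, and *Barx2* 2.102, 1.86 and 2.44 times. *Trp63* was 2.43 and 2.11 times higher in cluster 4 of the controls and 1.44 times in *Angpt1*ΔNC, short of the rule. Between clusters 2 and 4 only *Barx2* (2.54, 2.69 and 2.67 times) and *Elf3* (1.56, 1.56 and 1.62 times) passed, both higher in cluster 2, where 13.4% of 6864 genes did, against 2.29% in the other direction. Leaving out the keratin-low cells, the *Barx2* level of cluster 2 was 0.767, 0.752 and 0.437. The part of its conjunctival markers in these 2 ratios was not tested.

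**Figure D3:**
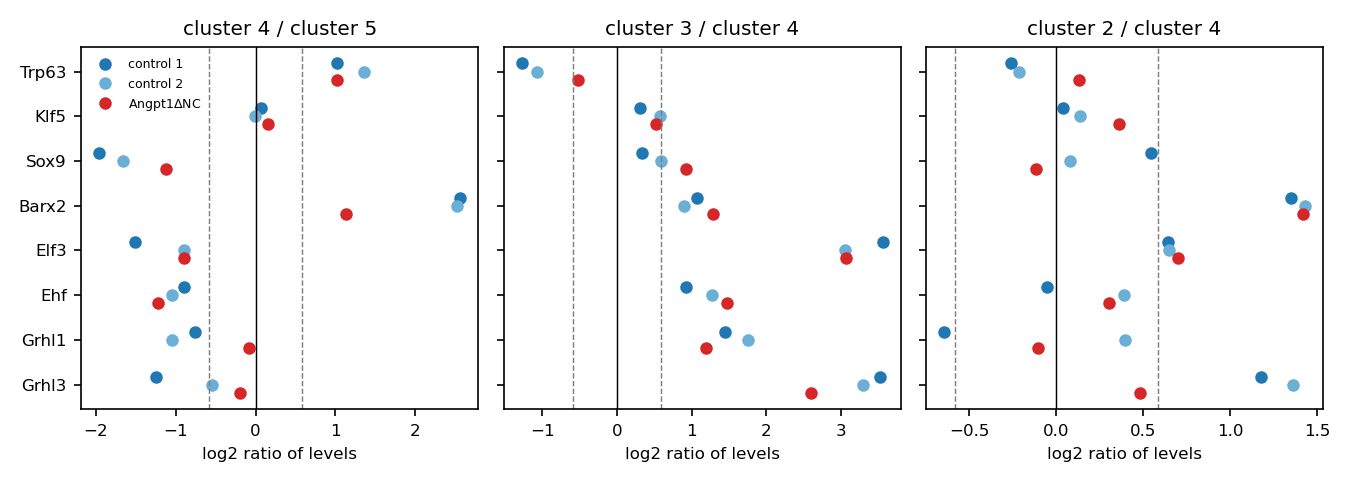
Log2 ratio of the levels of each gene between 2 clusters, 1 point per library, with dashed lines at 1.5-fold. *Trp63* and *Barx2* lie right of the line for cluster 4 over cluster 5 and *Sox9*, *Elf3* and *Ehf* left of it, while *Elf3* and *Grhl3* lie farthest right for cluster 3 over cluster 4.

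Genes that work with these factors were followed as lists. Of 14 epithelial barrier and junction genes, 13 reached the level for the comparison of clusters 3 and 4, and 10 of them were higher in cluster 3 by the same rule and none lower, with a median log2 ratio of 1.21 in the controls against -0.05 over all genes. Among them were the tight junction genes *Cldn3* (1.67, 4.01 and 2.82 UMIs per 10,000 in cluster 3, 0.122, 0.149 and 0.213 in cluster 4) and *Cldn7* (14.4, 16.6 and 18.4 against 3.92, 3.07 and 4.87). Of 11 known p63 targets, 7 were lower in cluster 3 and 2 higher (median -1.23). The lower ones were adhesion and signalling genes of basal cells, such as *Lamb3*, which encodes a chain of a basement membrane laminin (0.299, 0.294 and 0.308 against 1.56, 1.52 and 1.54), and *Jag2*, a Notch ligand (0.0258, 0.0234 and 0.0194 against 0.204, 0.188 and 0.133). Among the higher ones was *Perp*, a desmosome gene (28.0, 32.9 and 32.5 against 15.2, 12.2 and 15.0). Of 16 partner transcription factors, 12 reached the level, with 5 higher in cluster 3 (*Gata3*, *Pax6* and *Klf4* among them) and 1 lower (*Ovol2*), beside 13% and 10.6% of all genes.

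The same lists were counted between clusters 4 and 5, where 13% of all genes were higher in cluster 4 and 11.6% in cluster 5. Of 13 barrier and junction genes, 4 were higher in cluster 5 and none in cluster 4 (*Cldn7* at 10.4, 9.29 and 10.3 in cluster 5). Of 11 p63 targets, *Lamb3* was higher in cluster 4 (0.766, 0.725 and 0.920 in cluster 5), and *Perp* was among the 2 higher in cluster 5. Of 11 partner factors, *Meis1*, a homeobox gene, was higher in cluster 4 (0.131, 0.164 and 0.122 against 0.0325, 0.0374 and 0.0634), and 1 other was higher in cluster 5. The counts of partner factors and of p63 targets higher in cluster 4 are near those shares. Between clusters 2 and 4 no partner factor passed, 2 of 11 p63 targets were lower in cluster 2 (*Lamb3* and *Col17a1*) and 2 of 12 barrier genes were higher (*Cldn3* and *Cldn7*). Over all genes 13.4% were higher and 2.29% lower in cluster 2, so the count of barrier genes is near the share of all genes. Of 12 dissociation stress genes, 3 were higher in cluster 5 than in cluster 4 (*Atf3*, *Dnajb1*, *Fosb*) and 2 were lower in cluster 3 than in cluster 4 (*Ier2*, *Jun*).

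Cells thinned to 5000 UMIs were used to see which factors occurred together. A cell of cluster 3 had on average 3.04, 3.16 and 3.19 of the 8 factors with a UMI, against 2.19, 2.12 and 2.11 in cluster 4 and 2.69, 2.48 and 2.51 in cluster 5. In cluster 5, *Elf3* was found in 60.5%, 44.4% and 60.0% of the 38, 18 and 25 cells with a *Grhl3* UMI and in 31.7%, 22.9% and 29.0% of the cells without one. The *Grhl3* cells also had more of the corneal keratin *Krt12* (280, 213 and 186 UMIs per 10,000 against 160, 122 and 116) and less of the basal keratin *Krt14* (43.8, 49.0 and 56.9 against 87.9, 91.1 and 94.2). The other corneal markers did not all go with *Krt12*: *Slurp1* was higher in the *Grhl3* cells of each library (20, 16.2 and 8.8 against 9.16, 6.17 and 6.17), whereas *Aldh3a1* was lower in both controls (98.4 and 81.9 against 106 and 100.3) and higher in *Angpt1*ΔNC (86.2 against 74.9), and *Tkt* went the same way (41.2, 31.3 and 30.7 against 47.6, 40.2 and 26.7). Of the conjunctival markers, *Krt13* was higher in the *Grhl3* cells (0.579, 0.667 and 2.16 against 0.153, 0.150 and 0.387), as was *Muc4* (0.684, 0.889 and 0.640 against 0.0954, 0.0291 and 0.218). *Trp63* was found in 13.2% and 11.1% of these cells in the controls, against 30.7% and 25.6% of cells without *Grhl3*, but in 44.0% against 27.3% in *Angpt1*ΔNC. In cluster 4 only 11, 10 and 38 cells had a *Grhl3* UMI after thinning. *Elf3* was found in 54.5%, 20% and 23.7% of them and in 14.7%, 13.4% and 20.1% of the other cells. *Krt14* there was 128, 152 and 113 against 122, 125 and 112, and *Krt12* was 9.09, 4.40 and 2.42 against 11.99, 9.70 and 8.69, so that neither moved as it did beside *Grhl3* in cluster 5.

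Across the 35 clusters, the 3 genes whose log2 control level was most like that of *Trp63* among 12247 genes included *Stfa3* (Pearson's r = 0.99) and *Serpina9* (0.99). For *Elf3* they were *Cblc*, *Ankrd22* and *BC016579* (each 0.99 to 1.00), for *Ehf* *Slc25a48*, *Dsg3* and *Spint1* (0.98 to 0.99), and for *Grhl3* *Trex2*, *Oit1* and *Rnf39* (0.96 to 0.97). *Dsg3* encodes a desmosomal cadherin and *Spint1* a protease inhibitor of epithelia. *Barx2* was most like *Otx1* (0.94), *Agr2* (0.92) and *Pax6* (0.89), of which *Otx1* and *Pax6* encode factors of eye development. The values were lower for the widely expressed members, with *Klf5* most like *2610035D17Rik* (0.84), *Wnt4* (0.81) and *Nipal1* (0.81), *Grhl1* like *Stard10* (0.78), *Sh3rf1* (0.77) and *Slc25a24* (0.76), and *Sox9* like *Eya2* (0.74) and *Utp14b* (0.71). Among the 8, *Elf3* was close to *Ehf* and *Grhl3* (r = 0.95 each), and *Sox9* was at most 0.52 with any other. *Trp63* was as close to *Ehf* (0.95) and was at 0.89 with *Elf3*. The points share libraries, and 4 clusters carry most of the contrast, so these values are descriptions.

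The genotypes were compared with the counts of each cluster summed per library, 2 controls against 1 *Angpt1*ΔNC library, by edgeR's quasi-likelihood test with Benjamini-Hochberg adjustment over all genes tested. The lone library is assumed to vary like the controls, which leaves 1 residual degree of freedom, and the pool, its sex, its dissection and the genotype cannot be told apart. Also, p-values measure only the spread between these pools. All 8 factors were tested in each of the 4 clusters, and 3 passed, all in cluster 4, where 11.9% of 10521 genes did.

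*Grhl3* in cluster 4 rose from 30 and 32 UMIs in the controls to 146 in *Angpt1*ΔNC, or 4.69, 4.92 and 15.6 CPM (log2 fold change 1.68 ± 0.29 SE, adjusted p = 4.22e-07). *Grhl1* rose as well, with 114, 79 and 225 UMIs (17.8, 12.1 and 24.1 CPM; 0.67 ± 0.23, adjusted p = 0.0314). *Barx2* fell, with 157, 163 and 150 UMIs (24.5, 25.1 and 16.1 CPM; -0.64 ± 0.23, adjusted p = 0.0445). In each case the *Angpt1*ΔNC value lay outside the range of the controls. *Elf3* in the same cells was at 0.50 ± 0.19 (adjusted p = 0.0597), *Sox9* at 0.36 ± 0.18 (0.214), *Trp63* at -0.27 ± 0.17 (0.345), *Ehf* at -0.24 ± 0.18 (0.460) and *Klf5* at -0.08 ± 0.17 (0.841). These calls depended on the tool: under DESeq2 the adjusted p was 0.114 for *Grhl3*, 0.783 for *Grhl1* and 0.729 for *Barx2*, and without a filter on low counts 0.457, 0.517 and 0.460. Without control 2 or control 1, the *Grhl1* change was 0.44 or 0.99, while that of *Grhl3* stayed between 1.67 and 1.74.

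In cluster 5 none of the 8 passed, where 2.23% of 11365 genes did. *Barx2* had 66, 37 and 51 UMIs there, a change of 0.91 ± 0.33 (adjusted p = 0.219), and *Grhl3* had 283, 169 and 168 (0.50 ± 0.22, adjusted p = 0.289). The change itself differed between clusters 5 and 4 for *Barx2* (difference 1.54 on the log2 scale, adjusted p = 0.0126) and *Grhl3* (-1.19, adjusted p = 0.0397) in an edgeR fit with the library as a block, in which 1.42% of 11727 genes passed; for *Sox9* the difference was -0.59 (adjusted p = 0.0770). This fit between clusters was run with edgeR and its filter only, and its dependence on the tool or the filter was not tested. The cells of cluster 5 in *Angpt1*ΔNC also carried markers of other surface cells. *Krt15*, a limbal and conjunctival keratin, was at 0.978, 3.13 and 16.5 UMIs per 10,000, and the conjunctival sum was 0.359, 0.586 and 1.86, with 4 of its 5 genes higher by edgeR. Their part in the values of *Barx2* and *Grhl3* was not tested. In cluster 4 the conjunctival sum was 2.098, 2.34 and 2.48 and *Krt13* was lower in *Angpt1*ΔNC (0.148, 0.139 and 0.0629), *Agr2*, the 1 goblet cell marker tested, was higher (13.4, 12.6 and 22.4 CPM, edgeR adjusted p = 0.0126; DESeq2 0.645), and the corneal sum was 26.9, 21.5 and 16.3.

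In cluster 2 none of the 8 passed, where 2.18% of 8356 genes did. The values nearest to it were *Barx2* at -0.59 ± 0.28 (adjusted p = 0.359) and *Elf3* at 0.46 ± 0.26 (0.456). With its keratin-bearing cells alone *Barx2* was at -0.69 ± 0.27 (adjusted p = 0.186). Over all cells of cluster 2, the 4 conjunctival markers tested had a median log2 change of 1.06, against -0.03 over all genes. The part of such cells in the values of the 8 factors was not tested. In cluster 3 no gene passed by edgeR at all (0% of 8953, with 521 at an unadjusted p under 0.05 and 25 called by DESeq2), and the 8 factors were between -0.15 and 0.28. With the keratin-bearing cells of cluster 3 alone 484 of 8577 genes passed. None of the 8 factors did, which at so low a share says little about them. *Elf3* was at 0.20 ± 0.21 and *Trp63* at 0.25 ± 0.20.

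**Figure D4:**
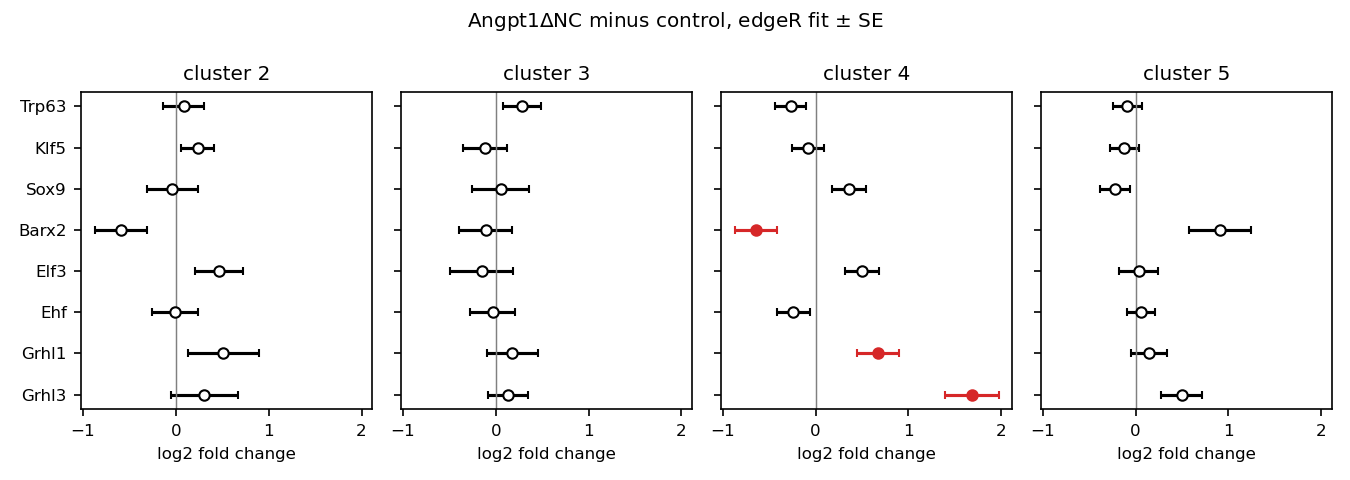
Log2 fold change, *Angpt1*ΔNC minus control, of the 8 genes in clusters 2 to 5, with a standard error worked back from the F statistic of the edgeR test. Filled red points passed an adjusted p of 0.05, which in these 4 clusters are *Grhl3* and *Grhl1* (higher) and *Barx2* (lower) in cluster 4.

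Of the partner factors, the Notch target *Hes1* was higher in *Angpt1*ΔNC by edgeR in clusters 4 (0.80 ± 0.18), 2 (1.10 ± 0.18) and 5 (0.91 ± 0.16). The counts in cluster 4 stand beside the 11.9% of all genes that passed there. In it, 2 of 14 tested partner factors were higher and 4 lower, among them *Ovol2* (-1.34 ± 0.28) and *Tfap2b* (-1.28 ± 0.32), and under DESeq2 2 were higher and none lower. Of 14 barrier and junction genes, 6 were higher in cluster 4 and 1 lower (median 0.43 against -0.01 over all genes). The largest increase was in *Ocln*, which encodes a tight junction protein (27.8, 20.9 and 46.1 CPM), followed by *Cldn3*, *St14* and *Cldn1*. None of the 14 passed under DESeq2. Of the p63 targets 1 of 11 passed in cluster 4, a share near that of all genes. Dissociation stress genes moved in the same cells, with 5 of 12 lower (*Ier3* and *Dusp1* the most) and 1 higher in cluster 4, 1 lower in cluster 2 (*Atf3*) and 1 lower in cluster 5 (*Fos*), and their part in the changes above was not tested.

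*Klf5* was also followed outside the epithelium. In *Angpt1*ΔNC it was below both controls in 20 of all 31 other clusters. Of 7125 genes at 0.1 UMIs per 10,000 or more in at least 10 of these clusters, 13.7% were below both controls in 20 or more, and the median gene was so in 12. The 12 clusters with the highest control level of *Klf5* were all among the 20. Choosing clusters by control level favours this, and no share over all genes was counted for it. The level was 1.55, 1.46 and 0.827 in TM7, 1.45, 1.44 and 0.613 in TM6, 1.06, 1.14 and 0.543 in TM8, and 0.893, 0.895 and 0.264 in TM9, which the study named uveal stroma. In the melanocyte cluster 9 it was 0.821, 0.812 and 0.0837. In each of these clusters the controls lay close together and *Angpt1*ΔNC well below them. Over TM1 to TM11, 28.0% (CI 26.4 to 29.7), 27.9% (26.4 to 29.4) and 14.1% (12.6 to 15.8) of cells had a *Klf5* UMI, against 1.17%, 0.910% and 0.748% in the monocyte cluster 24. The mix of clusters differed between the libraries, with TM7 at 667, 739 and 174 cells, TM8 at 591, 612 and 155, and TM9, the lowest in *Klf5* of the 4 uveal clusters, at 204, 298 and 327. With its clusters weighted as in control 1 or control 2, *Angpt1*ΔNC had *Klf5* in 18.8% or 18.1% of the stromal cells.

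Summed over TM6 to TM9, *Klf5* had 1007, 1182 and 209 UMIs, or 123, 127 and 48.7 CPM, and fell by 1.34 on the log2 scale (SE 0.17, adjusted p = 0.000718, edgeR), where 13.5% of 12202 genes passed. DESeq2 gave an adjusted p of 3.09e-05, and without either control the change was -1.36 or -1.38. This sum takes in the mix of clusters: by level, the log2 ratio was -1.37 as found and -1.01 with the clusters of *Angpt1*ΔNC weighted as in either control, and within single clusters it ran from -0.82 in TM7 to -1.76 in TM9. In the 4 surface clusters *Klf5* was between -0.12 and 0.24, and the difference between stroma and epithelium was not tested. *Sox9* in the same stroma was at -0.29 ± 0.22 (1468, 2441 and 763 UMIs; adjusted p = 0.417) and *Grhl1* at -0.68 ± 0.32 (61, 79 and 21 UMIs; adjusted p = 0.197). *Trp63*, *Elf3* and *Grhl3* had at most 5 UMIs per library there and were not tested. Of the 12 dissociation stress genes, 6 were lower and none higher in this stroma (median -0.48 against -0.02 over all genes; 3 lower by DESeq2), with *Dnajb1* and *Fosb* the most, and their part in the fall of *Klf5* was not tested. TM6 to TM9 were chosen for this fit after the levels were seen.

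**Figure D5:**
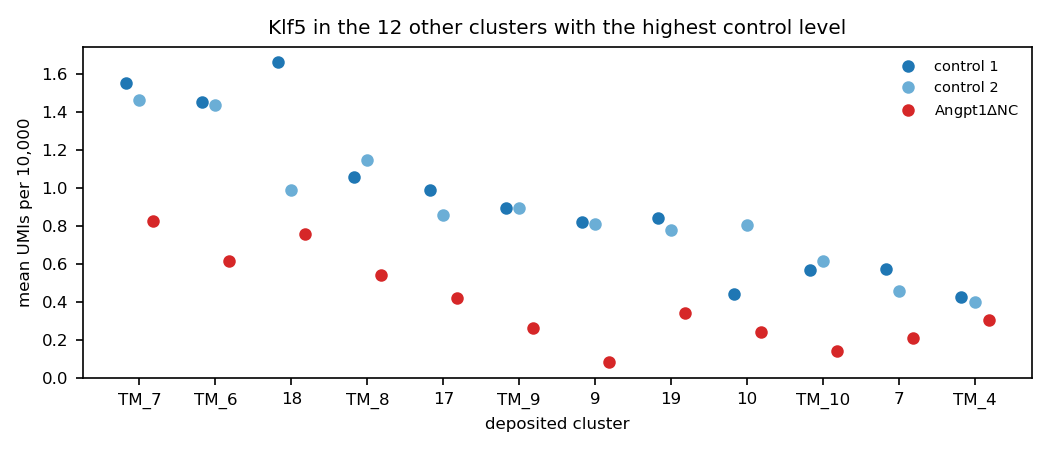
Level of *Klf5* (mean UMIs per 10,000) in the 12 clusters outside the surface epithelium with the highest control level, 1 point per library. The *Angpt1*ΔNC point lies below both control points in 12 of 12 clusters, from TM7 (0.827 against 1.55 and 1.46) to TM4. The choice of clusters by control level favours this, and no share over all genes was counted.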

How the data were processed

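Limbal and angle tissue was dissociated and run as 3 droplet libraries (10x Genomics), 2 control and 1 *Angpt1*ΔNC. Per the file headers, the authors deposited raw UMI counts per gene and cell from Cell Ranger 3.0.2 (their processing notes name 2.1.1) on mm10. They kept cells with at least 200 genes, 1000 UMIs and at most 10% mitochondrial reads, removed scDblFinder doublets, and clustered integrated values with Seurat 3.1.3. Their cluster names were joined to the counts by barcode, and the integrated values were not used. Choices of cells and clusters by the authors could therefore set which cells a level is averaged over.

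Levels were means over cells of UMIs per 10,000. Depth was compared by thinning cells to 5000 UMIs. A ratio between clusters used levels plus 0.01 and genes at 0.1 or more. Counts were summed per cluster and library and tested with edgeR 4.0.16 (TMM, quasi-likelihood, filterByExpr, adjusted p under 0.05), with DESeq2 1.42.0, RLE factors and no filter as alternatives (R 4.3.3; Python 3.11.15, scipy 1.17.1). An adjusted p that DESeq2 left out stayed missing. The SE beside an edgeR change is the absolute log2 fold change divided by the square root of the F statistic. The edgeR step was tested on simulated counts. Named genes were the 8 factors, the 3 genes most like each over the clusters, and at most 4 genes per list and comparison by fold, with a single gene of a direction named in addition. Values of a few genes that met this rule are not reported here. Members and lists were chosen with earlier results of these data known.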

Additional observations from a re-analysis of the deposited data

Results flagged for a closer look

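The change between genotypes differed between the corneal cluster 5 and the limbal cluster 4 for 2 of the 8 factors, by the interaction term of an edgeR fit with the library as a block, which was added after the data were seen. For *Barx2* the difference, cluster 5 minus cluster 4, was 1.54 on the log2 scale (adjusted p = 0.0126): CPM went from 4.56 and 3.33 to 7.38 in cluster 5 and from 24.5 and 25.1 to 16.1 in cluster 4. For *Grhl3* it was -1.19 (adjusted p = 0.0397): the change was 0.50 in cluster 5 and 1.68 in cluster 4. In the other 5 pairs of clusters none of the 8 factors passed, and the nearest was *Barx2* between clusters 2 and 5 (-1.46, adjusted p = 0.149). Fewer of all genes passed in each of these pairs than between clusters 5 and 4. The *Grhl3* difference was as large against cluster 4 in the other clusters, at -1.55 for cluster 3 and -1.39 for cluster 2. It is therefore not particular to cluster 5. The interaction was fitted with edgeR and its filter only. Its dependence on the tool, the filter or a single control was not tested.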

How the results depend on the processing

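The genotypes could not be compared in pairs, as the labels pair no control library with the *Angpt1*ΔNC library. Clusters were compared within libraries. With a fold of 2 in place of 1.5, 3 of the 8 factors were apart between clusters 4 and 5, 3 between clusters 3 and 4 and 1 between clusters 2 and 4, and after thinning to 5000 UMIs 1 between clusters 2 and 4. Without either control these counts were within 1.5 times the main count. After thinning, 95 of 96 shares of cells left their interval, as fewer UMIs per cell were kept. The number of genes changed between genotypes moved under DESeq2 to 68 in cluster 2, 25 in cluster 3, 213 in cluster 4 and 583 in TM6 to TM9, where edgeR had 182, 0, 1257 and 1652. Without a filter it was 505 in cluster 2, 399 in cluster 3, 0 in cluster 4 (1692 at an unadjusted p under 0.05) and 1209 in cluster 5, where edgeR with the filter had 253. With keratin-bearing cells alone it was 348 in cluster 2 and 484 in cluster 3. The cause of these moves was not tested. RLE factors kept each count within 1.5 times. The 3 calls in cluster 4 (*Grhl3*, *Grhl1*, *Barx2*) were lost under DESeq2 and without a filter. Of the single log2 changes between genotypes, 12 moved without control 1 and 25 stayed the same, and 9 and 28 did so without control 2. Under DESeq2 3 were weaker and 30 the same, and without a filter 3 and 33. Of the log2 ratios between clusters, 11 moved with summed UMIs and 13 did not, and after thinning 7 and 17. Signs turned only for changes that were not called: *Ehf* in cluster 2 (-0.01) was 0.0032 under DESeq2, 0.0042 with RLE factors and 0.024 without a filter, and with keratin-bearing cells *Trp63* in cluster 2 was -0.025, *Elf3* in cluster 3 was 0.20 and *Ehf* in cluster 3 was 0.042. Of the 3 genes most like *Trp63*, *Ehf* and *Grhl3*, 1 each was still among the top 3 with a pseudocount of 0.01, and 1 each for *Ehf* and *Grhl3* with summed UMIs. Weighting the stromal clusters as in a control, chosen after seeing the data, moved the log2 *Klf5* ratio of TM6 to TM9 from -1.37 to -1.01. *Grhl1* and *Grhl3* in cluster 4 rest on few UMIs.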

Other observations

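Surface cells of the corneal cluster 5 differed between the genotypes in genes of other surface regions. *Krt15* stood at 101, 292 and 1994 CPM (log2 change 3.36 ± 0.51 SE, edgeR adjusted p = 0.0271), but the controls themselves were apart (4.30 against control 1 and 2.77 against control 2) and the call was lost under DESeq2 (adjusted p = 0.156). The conjunctival keratins *Krt19* (2.01, 3.24 and 41.3 CPM; 4.01 ± 0.27, adjusted p = 0.00266) and *Krt4* (1.24, 0.539 and 16.4; 4.14 ± 0.40, adjusted p = 0.00686) were higher, as was *Agr2*, a secretory cell gene (3.60, 1.80 and 15.3; 2.49 ± 0.38, adjusted p = 0.0271). In the limbal cluster 4 the immediate early gene *Ier3* was lower (3338, 3095 and 1390 CPM; -1.23 ± 0.23, adjusted p = 6.91e-06). Whether pools, dissection or genotype set these values cannot be told apart.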
